A study of Ovis aries with 30 samples.

Results

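The livers of ewe lambs born to mothers kept on biosolids-treated pasture were compared with those of ewe lambs born to control mothers, 8 exposed and 8 control animals. The members are all gene rows that reached at least 1 CPM (1 count per mega-count of the library) in at least 8 of these 16 lambs, which is 14505 of the 31304 gene rows deposited. None of them (0) passed through 1 group only, because each also reached 1 CPM in at least 1 lamb of the other group. The series holds 30 lambs of both sexes, of which only the 16 females entered any value below. The exposure labelled for the mothers ran from before conception through gestation, and the lambs are the first generation of offspring. Each library was made from frozen whole liver, so a lower value in a group can come from fewer cells of a type or from less RNA per cell, which cannot be told apart. The breed, the age of the lambs and which lambs shared a mother are not given in the sources used here. Nothing but the tag numbers says that the lambs are separate animals, and the tag numbers of the groups do not overlap, so any flock or handling difference that follows the tags cannot be told apart from exposure.

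Biosolids are treated sewage sludge spread on farmland as fertiliser, and they carry many environmental chemicals at low levels, among them metals, polycyclic aromatic hydrocarbons and plasticisers. The liver clears such chemicals: nuclear receptors and the aryl hydrocarbon receptor sense them and switch on oxidising enzymes, conjugating enzymes and exporters. The same organ makes plasma proteins, lipoproteins, bile acids and most circulating insulin-like growth factor, and it sets glucose and fatty acid supply between meals. Hormones acting before birth are known to influence many of these functions, which is why a maternal exposure is studied in the liver of the offspring.

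The libraries were those of liver. Of 16 hepatocyte markers, 14 passed the filter, and ALB, the gene of the main plasma protein, ranged from 34664 to 79502 CPM in control lambs, with a median of 50990.3, and from 37790.5 to 79857 CPM in exposed lambs, with a median of 52093. The muscle gene MYH1 and the pancreatic gene PNLIP had 0 counts in all 16 lambs, and 0 of 12 red cell markers passed the filter. The hepatocyte gene APOA2 and the macrophage gene CD68 also had 0 counts in all 16, so such a 0 does not show that a tissue was absent. Of 10 muscle markers 1 passed the filter (NEB), and of 12 pancreas and gut markers 2 (VIL1 and LGALS4). Total counts per lamb were 29.8 to 39.1 M (mega-counts) in controls and 24.1 to 42.8 M in exposed lambs, ribosomal RNA rows took 2.62 to 7.69% and 2.43 to 6.49% of them, and mitochondrial rows 1.67 to 5.86% and 1.80 to 5.24%. Over 8 such library measures, the first 4 principal components included, exact two-sided permutation p-values for the difference between groups were 0.453 to 0.876, and the adjusted values 0.824 to 0.876. Single libraries did stand apart: control lamb 8263 and, less so, control lamb 8378 in genes that respond to interferon, and exposed lambs 8649 and 8668 in genes of mucous epithelium. Medians without 1 or more of these 4 lambs are given beside many of the lists that shifted when they were left out, but not beside all.

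No gene passed the test for exposure in ewe lambs. With edgeR's quasi-likelihood test and p-values adjusted by Benjamini-Hochberg, 0 of 14505 genes (0%) were called higher and 0 (0%) lower in exposed lambs, and the smallest adjusted p was 0.99999. Before adjustment, 372 genes (2.56%) had a p under 0.05, of which 150 (1.03%) had higher and 222 (1.53%) had lower values in exposed lambs. A share of 0.05 of the genes tested would be about 725 genes, so 372 is fewer than expected if no gene differed. DESeq2 also called 0 genes, with a smallest adjusted p of 0.242 and 422 genes at an unadjusted p under 0.05. No gene (0%) had all exposed lambs above, or all below, all control lambs.

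Differences of 1 log2 unit or more lay outside the 95% interval of most genes, but smaller ones often lay inside it. The 95% interval of the exposed-to-control ratio lay within 1 log2 unit on either side of no change for 13079 genes (90.2%) and within 0.5 log2 units for 7667 genes (52.9%). The median log2 fold change was -0.01, the median absolute value 0.10 and the median standard error 0.18, and 95% of genes differed by less than 0.48. Of all genes tested, 6821 (47.0%) had higher and 7684 lower values in exposed lambs, which is the background for the counts of each list below. A fold change of at least 1 log2 unit in size was fitted for 149 genes, 51 with higher and 98 with lower values in exposed lambs. For 83 of these the group medians differed by less than 0.5 log2 units, and for 36 the medians had the opposite order. The medians lay at least 1 log2 unit apart for only 32 of the 149.

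**Figure D1:**
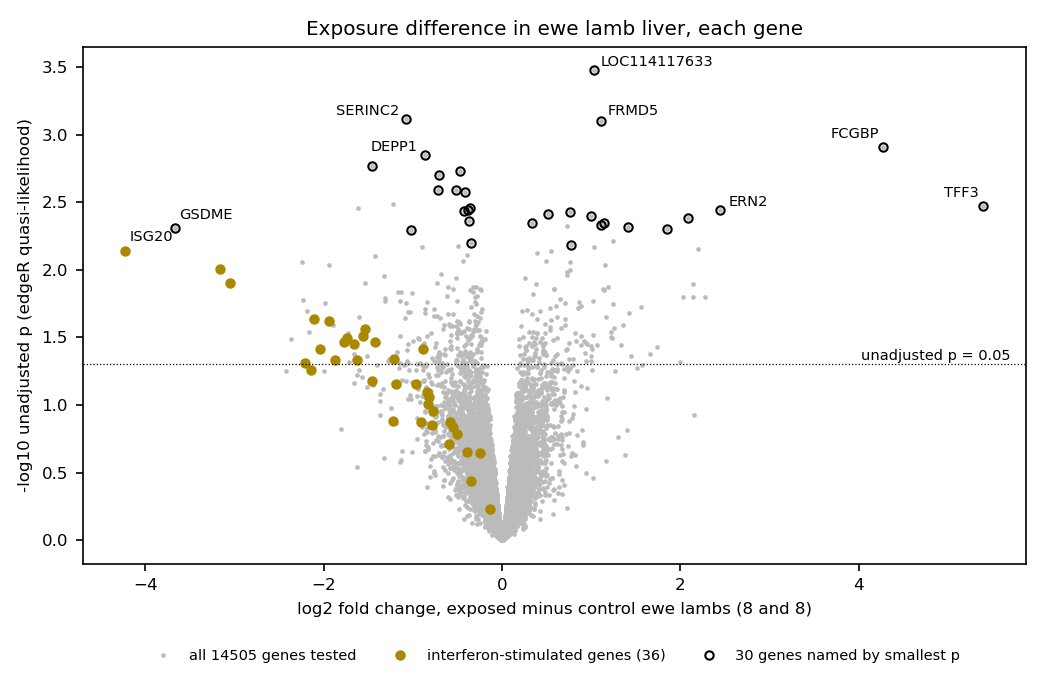
Each point is 1 of the 14505 genes tested in ewe lamb liver, with the log2 fold change of exposed against control lambs on the x axis and the unadjusted p of edgeR's quasi-likelihood test, as -log10, on the y axis. Gold points are 36 interferon-stimulated genes, all left of 0, and open circles are the 30 genes named for their small p, none of which passed the adjustment.

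The gene with the smallest p was LOC114117633, a long noncoding RNA of unknown role (chromosome 13, 72822294 to 72842496 in assembly ARS-UI_Ramb_v3.0). It ranged from 14.5 to 35.2 CPM in control lambs, with a median of 28.3, and from 25.7 to 84.9 CPM in exposed lambs, with a median of 54.6. Of the 8 exposed lambs, 7 lay above all controls, and the log2 fold change was 1.03 ± 0.23 (± standard error, as throughout; 95% interval 0.54 to 1.51, unadjusted p = 0.000335, adjusted p = 0.99999). FRMD5, which encodes a membrane-linked FERM-domain protein (chromosome 18, 53322621 to 53648156), ranged from 0.62 to 3.11 CPM in control lambs, with a median of 1.6, and from 2.82 to 4.85 CPM in exposed lambs, with a median of 3.59. Here 6 exposed lambs lay above every control and 7 controls below every exposed lamb, with a log2 fold change of 1.11 ± 0.27. ABHD12B, a serine hydrolase gene, ranged from 3.76 to 6.74 CPM in control lambs, with a median of 4.92, and from 4.45 to 8.73 CPM in exposed lambs, with a median of 7.56, and its exposed minimum was lamb 8668. FAM3A, whose product is a secreted or mitochondrial member of the FAM3 family, ranged from 6.01 to 8.7 CPM in control lambs, with a median of 7.35, and from 7.67 to 10.3 CPM in exposed lambs, with a median of 9.61. In both genes 7 of 8 exposed lambs lay above all controls, at small differences of 0.52 ± 0.16 and 0.34 ± 0.10 log2 units. SYN3, a synapsin better known from neurons, ranged from 1.02 to 3.27 CPM in control lambs, with a median of 1.53, and from 1.23 to 6.21 CPM in exposed lambs, with a median of 3.43. The noncoding LOC121820366 had medians of 1.14 and 2.3 CPM, and 4 exposed lambs lay above all controls.

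Several genes with a small p and higher values are known from epithelium that makes mucus or from connective tissue, and in most of them 2 exposed lambs carried the difference. TFF3, a peptide secreted with mucin, ranged from 0.104 to 5.67 CPM in control lambs, with a median of 0.34, and from 0.333 to 359 CPM in exposed lambs, with a median of 1.12. Lamb 8649 had the highest value and lamb 8668 followed with 37.5, while the remaining 6 exposed lambs overlapped the controls. FCGBP, a mucus protein that binds antibody tails, ranged from 1.08 to 4.15 CPM in control lambs, with a median of 3.36, and from 2.56 to 345 CPM in exposed lambs, with a median of 4.71, again with lambs 8649 and 8668 (at 94.7) on top. ERN2, the endoplasmic reticulum stress sensor of mucous cells, reached 22.9 and 4.74 CPM as its highest exposed values against a control maximum of 1.42. The fitted log2 fold changes were 5.40 ± 1.58 for TFF3, 4.27 ± 1.10 for FCGBP and 2.44 ± 0.73 for ERN2. Without lambs 8649 and 8668, a choice made after the data were seen, they were -0.07, 0.48 and 0.92.

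CDH17, a cadherin of intestinal and bile duct epithelium, had a median of 1.78 CPM in controls and 2.65 in exposed lambs, with 30.3 in lamb 8649. Its log2 fold change of 1.85 ± 0.58 became 0.41 without lambs 8649 and 8668. LOC101106871 had its exposed maximum, 32.1 CPM, in the same lamb, and a fold change of 2.08 ± 0.63 that became 0.41 without both. ITGB4, the integrin that anchors epithelium to its basement membrane, ranged from 5.24 to 13.6 CPM in control lambs, with a median of 9.85, and from 10.8 to 32.9 CPM in exposed lambs, with a median of 12.9. It kept a fold change of 0.39 without those lambs, from 0.77 ± 0.25 with them. FBLN1, a matrix protein, ranged up to 3.59 CPM in controls and 14.9 in exposed lambs, at 1.42 ± 0.44 with all lambs and 0.59 without both. The actin crosslinker FLNC (1.14 ± 0.35) and the cell adhesion adaptor FBLIM1 (0.76 ± 0.23) complete the 12 genes with a symbol; 5 and 3 exposed lambs lay above all controls.

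Among the genes with lower values in exposed lambs, SERINC2, a membrane protein gene of the serine incorporator family (chromosome 2, 235982139 to 235997618), had the smallest p. It ranged from 17.6 to 49.5 CPM in control lambs, with a median of 37.2, and from 7.49 to 33.7 CPM in exposed lambs, with a median of 14. The groups overlapped, with 5 exposed lambs below all controls, and the log2 fold change was -1.08 ± 0.27 (95% interval -1.64 to -0.52, unadjusted p = 0.000771, adjusted p = 0.99999). DEPP1, a gene driven by FOXO factors in fasting (chromosome 25, 43472647 to 43474091), ranged from 4.35 to 10.4 CPM in control lambs, with a median of 8.04, and from 2.94 to 9.12 CPM in exposed lambs, with a median of 3.61. Lamb 8668 held the exposed maximum and the next exposed value was 4.71. With all lambs the log2 fold change was -0.86 ± 0.23. Without lamb 8668 it was -1.11, with an adjusted p of 0.114 by the same test, the smallest adjusted p reached when any single lamb was left out. ADRB1, the beta-1 adrenergic receptor, ranged from 8.93 to 16.4 CPM in control lambs, with a median of 11.2, and from 7.42 to 10.6 CPM in exposed lambs, with a median of 8.49. In ADRB1, 6 exposed lambs lay below all controls and 6 controls above all exposed lambs, at a difference of -0.47 ± 0.13. SPRY2, an inhibitor of growth factor signalling through receptor tyrosine kinases, ranged from 12.4 to 19.8 CPM in control lambs, with a median of 14.9, and from 9.95 to 13.7 CPM in exposed lambs, with a median of 12.2, a difference of -0.36 ± 0.11 with 7 of 8 controls above every exposed lamb.

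The other genes with a small p and lower values differed by less than 1.1 log2 units, apart from GSDME and LOC114113172. They were TBCEL (-0.71 ± 0.20), MFSD1, a lysosomal transporter (-0.41 ± 0.12), PPP1R18, which targets a phosphatase to actin (-0.38 ± 0.11), PCDH12, a protocadherin of endothelium (-0.43 ± 0.13), KLHL42 (-0.37 ± 0.11), the orphan receptor GPRC5D (-1.02 ± 0.32) and PRICKLE1 of the planar polarity pathway (-0.35 ± 0.11). Of genes without a symbol, LOC114113172 had a fold change of -1.46 ± 0.40, LOC121817347 of -0.71 ± 0.20 and LOC101118112 of -0.52 ± 0.15. GSDME, a pore-forming gasdermin, owed its place to 1 animal: control lamb 8360 had 139 CPM, while the other 7 controls ended at 2.08 and the exposed lambs at 2.67. Its log2 fold change of -3.67 ± 1.13 was -0.13 without that lamb. AQP8, a hepatocyte water and peroxide channel named after its values were seen, ranged from 198 to 716 CPM in control lambs, with a median of 420.0, and from 112 to 338 CPM in exposed lambs, with a median of 233. In AQP8, 5 controls lay above all exposed lambs and 3 exposed lambs below all controls, at -0.90 ± 0.29 and an unadjusted p of 0.00674.

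**Figure D2:**
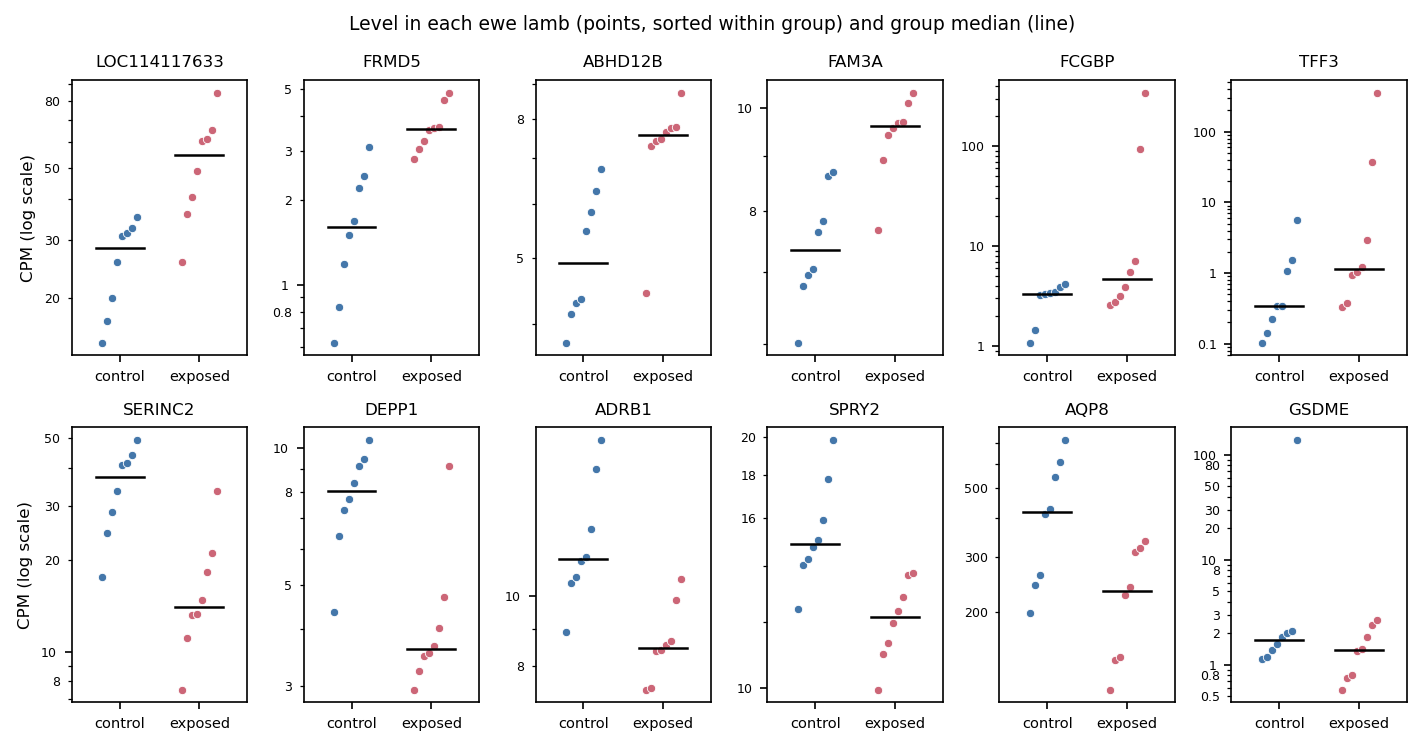
Level of 12 genes in each ewe lamb, in CPM on log scales that differ between panels, with control lambs on the left, exposed lambs on the right and a line at each group's median. In LOC114117633, FRMD5, SERINC2 and SPRY2 most lambs of a group lay outside the range of the other, whereas in TFF3 and FCGBP 2 exposed lambs and in GSDME 1 control lamb stood far above the rest.

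The lists of genes that sense and clear foreign chemicals had medians close to no difference, but some members were measured loosely. Of 12 tested genes of the aryl hydrocarbon receptor pathway, 5 had higher and 7 lower values, with 0 passing and a median log2 fold change of -0.07. Of 17 genes of the pregnane X and constitutive androstane receptor pathway, 7 had higher and 10 lower values, with a median of -0.02, beside -0.01 over all genes. Of these 12 and 17 genes, 10 and 15 had a 95% interval within 1 log2 unit of no change. CYP1A1, the oxidase most strongly switched on by the aryl hydrocarbon receptor, ranged from 83.3 to 569.5 CPM in control lambs, with a median of 246, and from 88.2 to 766 CPM in exposed lambs, with a median of 375. The groups overlapped almost fully and the log2 fold change was 0.48 ± 0.42 (95% interval -0.40 to 1.37). The receptor AHR itself differed by -0.16 ± 0.17, the pregnane X receptor NR1I2 by -0.05 ± 0.18 and the constitutive androstane receptor NR1I3 by -0.28 ± 0.18. CYP2C19, a drug oxidase, had medians of 115 and 50.5 CPM but ranged from 37.5 to 261 within controls alone, at -0.74 ± 0.45. The exporter ABCB1 differed by -0.31 ± 0.20, with 4 exposed lambs below all controls.

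Conjugation and antioxidant genes also had a median near the centre. The median over 24 glutathione and NRF2 target genes was -0.04, with 1 at an unadjusted p under 0.05, beside 2.56% of all genes tested. GSTA1, a glutathione transferase, ranged from 26.5 to 117 CPM in control lambs, with a median of 56.2, and from 18 to 91 CPM in exposed lambs, with a median of 43.6, a log2 fold change of -0.52 ± 0.33. HMOX1, which degrades haem under oxidative stress, differed by -0.04 ± 0.17, and LCN2, an iron-binding acute phase protein, by 0.04 ± 0.24. Among 14 flavin monooxygenases, esterases and other oxidases, MAOA, which oxidises monoamines, had the smallest p. It ranged from 3.5 to 5.58 CPM in control lambs, with a median of 4.95, and from 3.88 to 10.1 CPM in exposed lambs, with a median of 6.86, with 6 exposed lambs above all controls and 0.50 ± 0.17 log2 units. FMO2 (-0.43 ± 0.30) and the paraoxonase PON1 (-0.25 ± 0.18) had lower values. For metals, the median over 12 metal-handling genes was 0.03 and over 18 iron-handling genes -0.11. The iron-handling median was -0.04 without lambs 8649 and 8668, with 8 higher and 10 lower. Without lambs 8263 and 8378 it was -0.12, with 4 higher and 14 lower.

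Genes of cholesterol synthesis and uptake were mostly lower in exposed lambs, but the size of that depended on single lambs of both groups. Of 24 tested, 21 had lower and 3 higher values, at a median of -0.22 (log2 fold change). Without control lamb 8378 the median was -0.03, with 10 higher and 14 lower. Without exposed lamb 8668, which had the highest exposed mean, it was -0.32, with 3 higher and 21 lower. Without lambs 8263, 8378, 8649 and 8668 it was -0.05, with 7 higher and 17 lower. FDPS, a farnesyl diphosphate synthase of the mevalonate pathway, reached 18.8 CPM in lamb 8378 while the other controls ended at 5.61. Its fold change was -0.85 ± 0.41 with that lamb and -0.20 without it. SREBF2, the transcription factor that drives the pathway, differed by -0.37 ± 0.19.

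Fatty acid genes did not lie to 1 side. Of 25 genes of fatty acid and triglyceride synthesis, 12 had higher and 13 lower values, with a median of -0.03 and 2 higher genes at an unadjusted p under 0.05. Those were CIDEC, a lipid droplet protein, and ME1, the malic enzyme that supplies NADPH for lipid synthesis. The share of all genes tested that were higher at such a p was 1.03%. CIDEC ranged from 1.17 to 4.26 CPM in control lambs, with a median of 2.86, and from 3.05 to 5.31 CPM in exposed lambs, with a median of 4.45, with 5 exposed lambs above all controls and a difference of 0.65 ± 0.24. ME1 stayed at or below 1.26 CPM in controls and reached 5.82 in exposed lamb 8714, at 1.13 ± 0.41. The desaturase SCD ranged from 7.05 to 27.5 CPM in control lambs, with a median of 17.4, and from 3.26 to 22.6 CPM in exposed lambs, with a median of 8.25. Its log2 fold change was -0.67 ± 0.35, that of SREBF1, the insulin-responsive regulator of lipid synthesis, -0.42 ± 0.21, and that of the synthase FASN -0.19 ± 0.13.

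Of 27 genes of fatty acid oxidation and ketogenesis, 19 had higher and 8 lower values, with a median of 0.10 and 0 at an unadjusted p under 0.05. Lamb 8263 had the lowest mean level of these genes, and without it the median was 0.02 with 17 higher and 10 lower. Without exposed lambs 8649 and 8668 the median was 0.16 with 22 higher and 5 lower. Without lambs 8263, 8378, 8649 and 8668 it was 0.07 with 19 higher and 8 lower. PDK4, which spares glucose by blocking pyruvate oxidation, ranged from 106 to 306 CPM in control lambs, with a median of 171, and from 199.6 to 416 CPM in exposed lambs, with a median of 224. In PDK4, 5 controls lay below all exposed lambs and the exposed maximum was lamb 8775, at 0.43 ± 0.22. CPT1A, the gate for fatty acid entry into mitochondria, differed by 0.28 ± 0.22, SLC25A20, which carries acylcarnitines, by 0.21 ± 0.15, and HADHB of the beta-oxidation spiral by 0.20 ± 0.15. FGF21, a fasting hormone of the liver, ranged from 0.199 to 23.9 CPM in control lambs, with a median of 3.85, and from 2.08 to 28.9 CPM in exposed lambs, with a median of 8.04, and its interval of -0.74 to 2.40 was wide. PPARA, the receptor that drives this programme, differed by -0.07 ± 0.22. The median over 18 lipoprotein genes was -0.01.

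Bile acid, glucose and nitrogen genes showed no called change. Of 14 bile acid genes, 5 had higher and 9 lower values, at a median of -0.10. That median was -0.05 without lamb 8378 and -0.12 without lamb 8263. SLC51B, a subunit of the basolateral bile acid exporter, ranged from 4.44 to 54.1 CPM in control lambs, with a median of 32.8, and from 7.54 to 29.4 CPM in exposed lambs, with a median of 14.7, at -0.89 ± 0.43, with 4 controls above all exposed lambs. AMACR, which flips the side chain during bile acid synthesis, differed by -0.18 ± 0.15 and HSD3B7, an early synthesis enzyme, by 0.25 ± 0.21. Over 29 genes of gluconeogenesis and amino acid use the median was 0.05, and over 29 genes of glycolysis, glycogen and pentose phosphate it was 0.01. PCK1 (-0.04 ± 0.26) and G6PC1 (0.15 ± 0.25), which control glucose output, had intervals of -0.59 to 0.51 and -0.38 to 0.68. HGD of tyrosine breakdown had 5 controls below all exposed lambs at 0.29 ± 0.15. SDSL, a serine dehydratase-like enzyme, differed by 0.38 ± 0.22, and TDO2, which opens tryptophan breakdown, by -0.42 ± 0.29 with a control maximum of 1017 CPM in lamb 8263. Over 12 urea cycle genes the median was 0.03, and -0.05 without lamb 8263.

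Hormone receptors and the growth axis were likewise without a call. Of 34 nuclear receptors, 15 had higher and 19 lower values and the median was -0.01. The thyroid hormone receptor gene THRB ranged from 5.41 to 10.2 CPM in control lambs, with a median of 9.28, and from 8.51 to 15.1 CPM in exposed lambs, with a median of 10.7. In THRB, 5 exposed lambs lay above all controls, and the log2 fold change was 0.37 ± 0.16 with an unadjusted p of 0.0321. The mineralocorticoid receptor NR3C2 differed by 0.43 ± 0.21, whereas the glucocorticoid receptor NR3C1 was close to equal at 0.02 ± 0.09. The oestrogen receptor ESR1 differed by -0.11 ± 0.22 and PPARG by 0.17 ± 0.28. HSD17B2, which inactivates oestradiol and testosterone, ranged from 13.6 to 77.1 CPM in control lambs, with a median of 36.6, and from 11.9 to 42.9 CPM in exposed lambs, with a median of 23.6, at -0.70 ± 0.33 and an unadjusted p of 0.0492.

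Of 21 genes of the growth hormone and IGF axis, 7 had higher and 14 lower values, with a median of -0.11. The median was -0.02 without lamb 8378, with 9 higher and 12 lower, and -0.03 without lamb 8649. Without lamb 8263 it was -0.10, with 6 higher and 15 lower. STAT5A, which carries the growth hormone signal to the nucleus, ranged from 8.38 to 15.5 CPM in control lambs, with a median of 10.9, and from 7.73 to 9.56 CPM in exposed lambs, with a median of 8.67. Its control maximum was lamb 8263, 5 controls lay above all exposed lambs, and the difference was -0.33 ± 0.12. The feedback inhibitor CISH differed by -0.26 ± 0.17. SOCS1, another inhibitor, had 18 CPM in lamb 8263 against at most 3.68 in the other controls, at -0.65 ± 0.42. The growth hormone receptor GHR (0.13 ± 0.21), IGF1 (-0.12 ± 0.30), IGF2 (-0.15 ± 0.29) and IGFBP1 (0.06 ± 0.51) were all within 1 standard error of no difference.

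**Figure D3:**
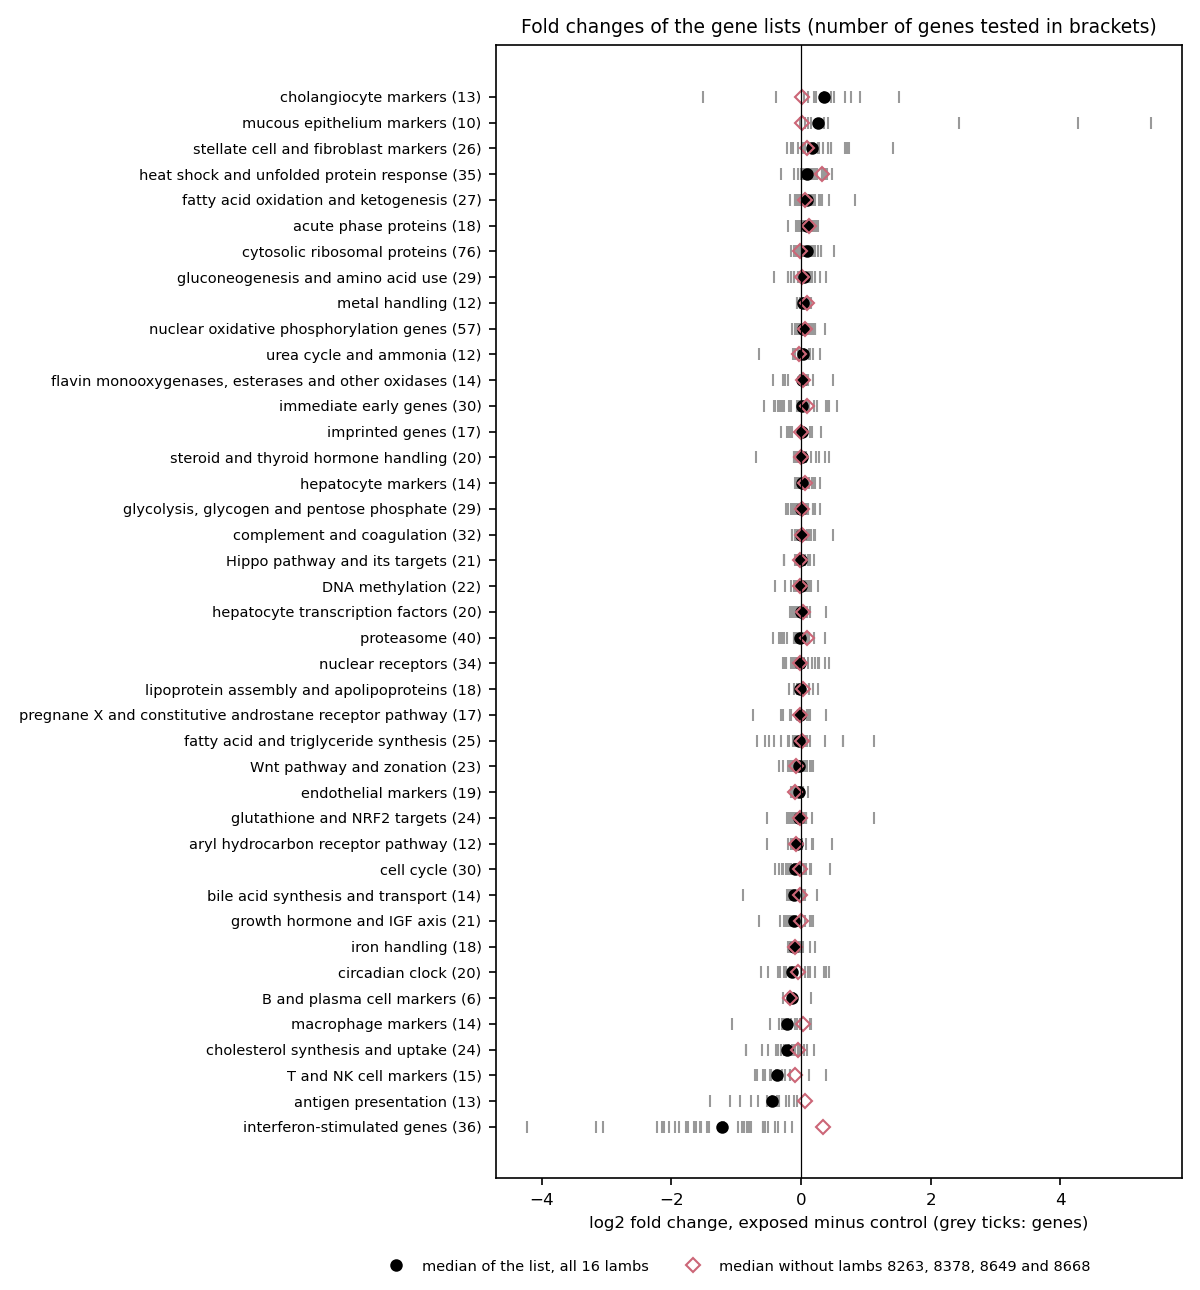
Log2 fold changes of exposed against control ewe lambs for 41 gene lists with at least 5 tested members. Grey ticks are genes, black points the median of a list over all 16 lambs and open diamonds the median without lambs 8263, 8378, 8649 and 8668, which lies near 0 for most lists and moves from -1.22 to 0.34 for the interferon-stimulated genes.

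Interferon-stimulated genes, the antiviral effectors that cells switch on when they meet interferon, had the lowest median of any list drawn in that plot. All 36 tested members had lower values in exposed lambs, with a median log2 fold change of -1.22, 17 of them at an unadjusted p under 0.05 and 0 passing the adjusted test. Over all genes tested, 222 (1.53%) were lower at such an unadjusted p. The members respond together to interferon, so the 17 are not separate findings. The summed level of the list was 1152 to 19056 CPM in controls and 1037 to 3192 in exposed lambs, but the medians were close, 1929.6 and 2104. Control lamb 8263 held the maximum. ISG20, an exonuclease, had 128 CPM in that lamb, at most 1.45 in the other 7 controls and 0.121 to 1.74 in exposed lambs. IFIT3, which takes part in blocking viral RNA, had 629.6 CPM there and 58.9 in the next control. RSAD2, the antiviral enzyme viperin, had 678 CPM there and 43.8 in the next control.

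The size of this difference depended on control lambs 8263 and 8378. Without lamb 8263 the median of the list was -0.22, with 29 lower, 7 higher and 0 genes at an unadjusted p under 0.05. Without both lambs it was 0.21, and 31 of 36 genes had higher values in exposed lambs. The pair was chosen after the data were seen and had the highest mean levels of this list, 8.19 and 6.33 log2 CPM. Leaving out the highest controls raises the fold changes by construction, so that fit does not test the direction. The log2 fold change of ISG20 went from -4.22 ± 1.38 to 0.34 without lamb 8263, that of IFIT3 from -3.17 ± 1.09 to -0.47 and that of RSAD2 from -3.06 ± 1.09 to -0.12. Lamb 8263 had 92 genes at 8 or more times the median of the other 15 lambs, 23 of them interferon-stimulated, against 2 to 32 such genes in the other 15 lambs. IFI6, IFIT1, MX1, CMPK2, ZNFX1 and ISG15 were its most abundant ones, with 5399.8 CPM for IFI6 against at most 1459 in any other lamb.

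Antigen presentation genes and markers of T and NK cells and of macrophages were also highest in lamb 8263. Other immune cells were not: the 6 tested markers of B and plasma cells had their highest mean in control lamb 8322 and the 2 tested neutrophil markers in exposed lamb 8649, with medians over the markers of -0.14 and 0.28. All 13 tested genes of antigen presentation had lower values at a median of -0.45, against 7 at -0.01 without lamb 8263. The immunoproteasome subunits PSMB8 (-1.09 ± 0.52) and PSMB9 (-1.40 ± 0.66) and the peptide transporter TAP1 (-0.94 ± 0.50) had control maxima of 497, 345 and 431 CPM in it. Of 15 markers of T and NK cells, 13 had lower values, with a median of -0.37. Without lamb 8263 the median was -0.06, with 12 still lower and 3 higher. CD8A, the co-receptor of cytotoxic T cells, ranged from 6.41 to 38.6 CPM in control lambs, with a median of 10.8, and from 4.5 to 11.5 CPM in exposed lambs, with a median of 8.23. EOMES (-0.49 ± 0.26) and perforin, PRF1 (-0.56 ± 0.31), were also lower. Of 14 macrophage markers, 12 had lower values at a median of -0.22, against 8 at -0.02 without lamb 8263. Lysozyme, LYZ, had 13.5 CPM in lamb 8263 and at most 2.54 in other controls, SPI1 differed by -0.25 ± 0.16 and C1QC by -0.28 ± 0.22. Whether the immune cell content of this liver sets its interferon genes was not tested.

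Acute phase proteins, which hepatocytes secrete in inflammation, had a median of 0.10 over 18 genes, with 0 at an unadjusted p under 0.05. That median was 0.17 without lambs 8649 and 8668 and 0.05 without lamb 8378. FGG, a fibrinogen chain, differed by 0.24 ± 0.17, CRP by 0.17 ± 0.13 and the interleukin-1 antagonist IL1RN by 0.19 ± 0.14. The median over 32 complement and coagulation genes was 0.00 with 18 higher and 14 lower, and -0.05 with 10 higher and 22 lower without lambs 8263 and 8378. Without lambs 8649 and 8668 it was 0.06, with 24 higher and 8 lower. Of 30 immediate early genes, which respond within minutes to stimuli and handling, 17 had higher and 13 lower values. IER5 (-0.32 ± 0.13), DUSP2 (-0.35 ± 0.15) and IER3 (-0.41 ± 0.17) were the 3 at an unadjusted p under 0.05, all lower, and 3 to 5 controls lay above all exposed lambs in each. The share of all genes tested that were lower at such a p was 1.53%.

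Epithelial and connective tissue genes were mostly higher in exposed lambs, and the medians of the epithelial lists followed lambs 8649 and 8668. Of 10 mucous epithelium markers, 8 had higher values, with a median of 0.26 that was -0.04 without both lambs. Their summed level was 333 to 606 CPM in controls and 269.8 to 2021 in exposed lambs. Of 13 cholangiocyte markers, the genes of bile duct lining cells, 11 had higher values, with a median of 0.36 that was 0.01 without both. EPCAM, a surface protein of duct epithelium, had 27.1 CPM in lamb 8649, 4.49 in the next exposed lamb and at most 3.56 in controls. Its log2 fold change was 1.51 ± 0.73 with all lambs and -0.55 without both. SPP1, osteopontin, went the other way at -1.51 ± 0.79, with 33.7 and 26.5 CPM in its highest controls.

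Of 26 stellate cell and fibroblast markers, 22 had higher values, with a median of 0.17. The median was 0.17 without lamb 8649, 0.14 without lamb 8668 and 0.10 without both lambs, when 16 were higher and 10 lower. COL1A2, a collagen chain, ranged from 18.9 to 52.8 CPM in control lambs, with a median of 34.1, and from 22.7 to 146 CPM in exposed lambs, with a median of 55, and its fold change of 0.73 ± 0.33 was 0.27 without them. Elastin, ELN, ranged from 7.98 to 19 CPM in control lambs, with a median of 13.2, and from 12.3 to 26.9 CPM in exposed lambs, with a median of 18.1, at 0.46 ± 0.20. LRRN4 was the only 1 of 9 mesothelium markers to be tested, and reached 18.5 and 15.7 CPM in its highest controls against 5.49 in exposed lambs, at -1.53 ± 0.55. The median over 19 endothelial markers was -0.03 and over 14 hepatocyte markers 0.01. How much duct or connective tissue each sampled piece held was not tested.

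**Figure D4:**
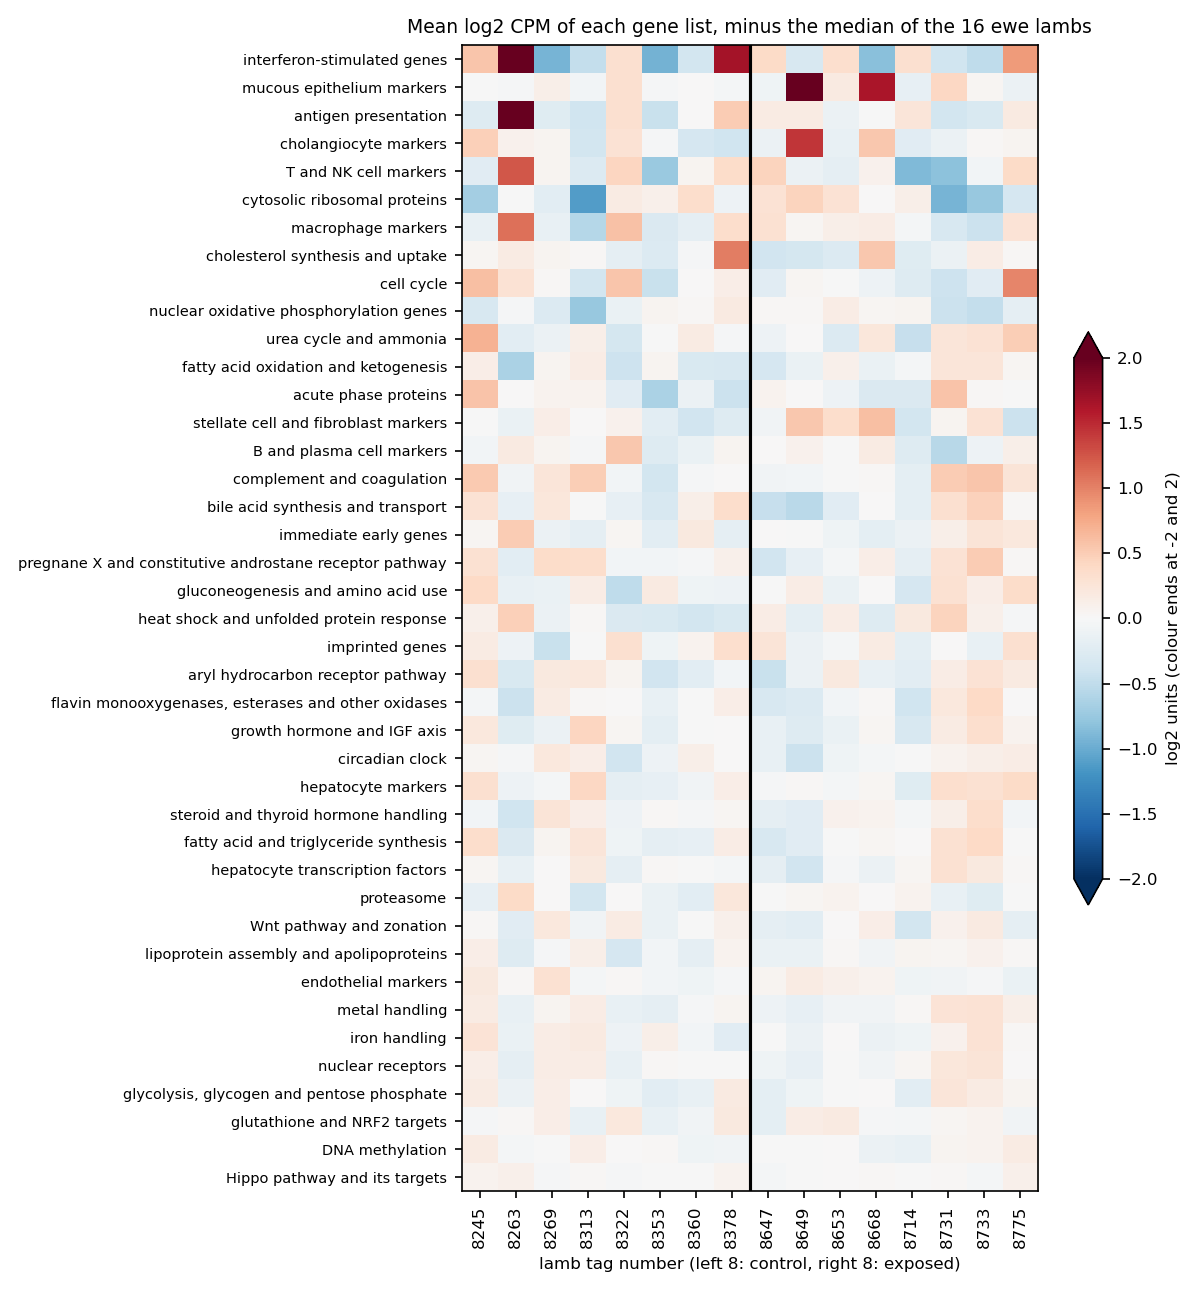
Mean log2 CPM of each of the 41 lists in each ewe lamb, minus the median of the 16 lambs, with control lambs left and exposed lambs right of the line and colour ending at 2 log2 units in either direction. Single lambs stand out: 8263 and 8378 in interferon-stimulated genes, 8649 and 8668 in mucous epithelium markers, 8263 in antigen presentation genes and 8649 in cholangiocyte markers.

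Protein-folding genes leaned higher in exposed lambs. Of 35 tested genes of the heat shock and unfolded protein response, 30 had higher and 5 lower values, with a median of 0.10 and 0 at an unadjusted p under 0.05. Of all genes tested, 47.0% had higher values. Without lamb 8263 the median was 0.24 with 8 genes at an unadjusted p under 0.05, and without lambs 8263, 8378, 8649 and 8668 it was 0.32 with 12. Over all genes the same fits had 420 and 416 of 14505 at such a p. Lamb 8263, a control, had the highest mean level of this list of the 16 lambs. BAG3, a co-chaperone, ranged from 30.1 to 112 CPM in control lambs, with a median of 59.4, and from 54.1 to 116 CPM in exposed lambs, with a median of 86, a log2 fold change of 0.40 ± 0.22. EIF2AK3, the stress kinase PERK, differed by 0.21 ± 0.13 and SESN2, a sestrin induced by stress, by -0.31 ± 0.19. No member passed the adjusted test in any of these fits (0 calls).

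Of 40 proteasome genes, 19 had higher and 21 lower values, with a median of -0.01. Without lamb 8263, which had the highest control mean, 28 were higher and 12 lower, and without lambs 8263 and 8378 35 were higher and 5 lower at a median of 0.11. PSMC5, an ATPase of the regulatory particle, differed by 0.20 ± 0.09, PSMD6 differed by 0.37 ± 0.20 and PSMF1, an inhibitor of the proteasome, by -0.32 ± 0.21 with its control maximum in lamb 8263. Of 76 cytosolic ribosomal protein genes, 59 had higher values at a median of 0.09. That median was -0.04 without lambs 8649 and 8668 and 0.10 without lambs 8263 and 8378. Of 57 nuclear genes of oxidative phosphorylation, 40 had higher values at a median of 0.03, against 28 without lambs 8649 and 8668 and 51 without lambs 8263 and 8378.

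The circadian clock, cell cycle and epigenetic genes were tested too. Of 20 clock genes, 8 had higher and 12 lower values, at a median of -0.14. That median was -0.002 without lambs 8649 and 8668, with 10 higher and 10 lower. Without lambs 8263 and 8378 it was -0.12, with 7 higher and 13 lower. DBP, an output factor of the clock, ranged from 66.2 to 144 CPM in control lambs, with a median of 87.8, and from 47.2 to 85.8 CPM in exposed lambs, with a median of 72.6. In DBP, 5 controls lay above all exposed lambs, at -0.50 ± 0.19 and an unadjusted p of 0.017. PER3 differed by -0.35 ± 0.20 and BMAL1, which oscillates in the opposite phase, by 0.39 ± 0.24. The sources used here give no time of day for sampling, and its part in these values was not tested. Of 30 cell cycle genes, 25 had lower values at a median of -0.09, against 18 at -0.02 without lambs 8263, 8378, 8649 and 8668. With only lambs 8263 and 8378 left out, 20 were lower at a median of -0.12. The Hippo factor TEAD4 differed by -0.27 ± 0.15. The DNA methyltransferases DNMT1 (0.02 ± 0.14) and DNMT3A (0.02 ± 0.10) and the demethylating TET2 (-0.10 ± 0.09) had intervals of -0.26 to 0.31, -0.18 to 0.22 and -0.28 to 0.08. Over 22 DNA methylation genes and 17 imprinted genes the medians were -0.00 and 0.01.

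The main axes of variation between lambs did not follow exposure. The first principal component of the tested genes took 27.4% and the second 14.4% of the variance, and exact two-sided permutation p-values for the difference between groups were 0.876 and 0.464. Control lambs 8245 and 8313 and exposed lambs 8731 and 8733 lay together at the low end of the first component, from -51.5 to -38.9. The same 4 lambs had the lowest mean log2 CPM of the ribosomal protein list, from 6.66 to 7.09, and the lowest scaling factors, from 0.863 to 0.901. Lamb 8263 lay at the other end and had the lowest median rank correlation with the other lambs, 0.925, over the tested genes, a description that depth and tissue content share.

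**Figure D5:**
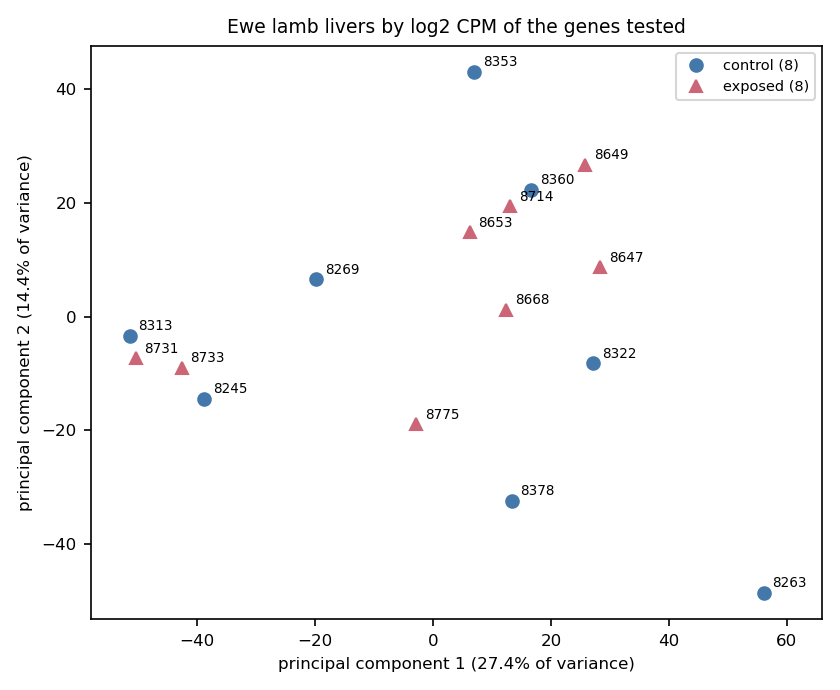
The first and second principal components of log2 CPM over the tested genes, with 1 symbol per ewe lamb and its tag number, circles for controls and triangles for exposed lambs. Lambs 8245, 8313, 8731 and 8733 of both groups lie together on the left, and control lamb 8263 stands alone at the lower right.

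Some genes were near absent in some lambs and abundant in others of the same group. These were picked after their values were seen and are a description. RNASE10, a ribonuclease-family gene, ranged from 0.0704 to 176 CPM in control lambs, with a median of 1.48, and from 0.636 to 245 CPM in exposed lambs, with a median of 186. The sterol-binding protein gene OSBPL3 stood at 205 CPM in control lamb 8378 and 656 in exposed lamb 8649, and at most 15.1 and 13.8 in the other lambs of their groups. The transporter ABCC11 had 181 and 109 CPM in its highest controls and 150.2 and 129 in its highest exposed lambs, against group medians of 13.9 and 20.6. FLT3, a cytokine receptor, ranged from 0.504 to 15.6 CPM in control lambs, with a median of 1.84, and from 0.586 to 16.7 CPM in exposed lambs, with a median of 1.04, and the small GTPase gene DIRAS3 ranged from 0.848 to 38.9 CPM in control lambs, with a median of 5.65, and from 0.517 to 30.2 CPM in exposed lambs, with a median of 4.01. High and low lambs of these genes occurred in both groups, although the exposed median of RNASE10 lay above its highest control.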

How the data were processed

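RNA of 30 mg of frozen liver was isolated with a column kit, and TruSeq RNA libraries were run on NovaSeq S4 for 50 cycles, per the labels' protocols. The authors deposited whole-number counts per gene, not normalized, in 1 table with a column per lamb (0 columns left without a lamb). The submitters' processing notes name featureCounts 1.5.0-p3, STAR, Trimmomatic, MultiQC and FastQC. Strand, settings and genome build are not given in the sources used here. Antisense or overlapping genes could therefore share reads, and near-identical copies are uncertain. No batch or litter is labelled.

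Here 7 genes broken over 25 lines were joined. Of 31304 rows, 28875 matched RefSeq of ARS-UI_Ramb_v3.0 by symbol, and all 28868 that could be compared had the same start and end. Counts of the 16 ewe lambs alone were scaled by TMM and tested with edgeR 4.0.16 (robust quasi-likelihood, 14 residual degrees of freedom) in R 4.3.3. A call needed a p under 0.05 after Benjamini-Hochberg adjustment over all 14505 genes. CPM are TMM-scaled, and values after ± are standard errors derived from F statistics. Coordinates count from 1. The script was tested on simulated counts. Alternatives were RLE scaling, DESeq2 1.42.0, limma 3.58.1 voom, an exact permutation test per gene, other filters, ribosomal RNA rows left out, 2 surrogate variables (sva 3.50.0), an adjusted p under 0.1 and each lamb left out. Fits without lambs 8263 and 8378, without 8649 and 8668 and without all 4 were added after the data were seen.

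The lists, named genes and tests were chosen with earlier results of these data known. Named were the 12 genes with a symbol and 3 without of smallest p per direction, the 3 of smallest p of the lists described at gene level, 32 preset metabolic, receptor and stress genes, and genes at 8 or more times the median of the other lambs in a lamb with at least 10 such genes. AQP8 and the genes of the last paragraph of results were named after their values were seen. The rule also named the 2 most abundant genes of each list, of which only a few are given. Some items are not reported here.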

Additional observations from a re-analysis of the deposited data

Results flagged for a closer look

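In 244 sets of 8 values (a gene or library measure in a group), the gap between the highest or lowest lamb and its neighbour was compared with the range of the group, a check that chance meets in about 1 in 20 sets. It was met in 38. Many of these genes were named for a small p or for a lamb far above the others. The rate of 1 in 20 therefore does not apply to them, and the count is a description. Levels are in CPM. Control lamb 8245 stood above its group with 101 for SREBF1. Control lamb 8263 stood above its group with 38.6 for CD8A, 629.6 for IFIT3, 132 for IL1RN, 128 for ISG20, 13.5 for LYZ, 497 for PSMB8, 345 for PSMB9, 678 for RSAD2, 18 for SOCS1, 15.5 for STAT5A, 431 for TAP1 and 1017 for TDO2. Control lamb 8313 stood above its group with 3.27 for SYN3. Control lamb 8353 stood above its group with 3.56 for EPCAM, 23.9 for FGF21 and 5.67 for TFF3. Control lamb 8360 stood above its group with 139 for GSDME and 70.6 for PER3. Control lamb 8378 stood above its group with 18.8 for FDPS. Exposed lamb 8649 stood above its group with 30.3 for CDH17, 146 for COL1A2, 27.1 for EPCAM, 22.9 for ERN2, 345 for FCGBP, 32.1 for LOC101106871 and 359 for TFF3. Exposed lamb 8668 stood above its group with 9.12 for DEPP1 and 5.49 for FDPS. Exposed lamb 8714 stood above its group with 5.49 for LRRN4 and 5.82 for ME1. Exposed lamb 8731 stood above its group with 2.21 for LYZ. Exposed lamb 8733 stood above its group with 91 for GSTA1. Exposed lamb 8775 stood above its group with 23.1 for IFIT3 and 416 for PDK4. Exposed lamb 8668 stood below its group with 4.45 for ABHD12B. Control lamb 8245 had the deepest library of its group, 39.1 M (mega-counts), and control lamb 8263 the lowest median rank correlation with the other lambs, 0.925. The cause of these values was not tested.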

How the results depend on the processing

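No paired analysis was possible because the groups share no replicate numbers. All 29 alternatives that give calls made 0, and 0 of 3136 values of the 113 named genes passed. Genes at an unadjusted p under 0.05 numbered 372, and 1239 of 26270 without the low-count filter and 679 with 2 surrogate variables; the causes were not tested. With single lambs left out they numbered 281 to 511, called genes 0 to 0 in either direction, genes with an interval within 1 log2 unit 12850 to 13198, and genes whose groups do not overlap 0 to 2. The latter (0 with all lambs) numbered 4 without lambs 8649 and 8668, 1 without 8263 and 8378, and 18 without all 4, settings added after the data were seen; fewer lambs were then compared. The median of the interferon-stimulated genes, -1.22, was -0.05 by limma voom, -0.02 with 2 surrogate variables, 0.21 without 8263 and 8378 and 0.34 without all 4. Of 1148 list medians only these 4 moved by at least the standard deviation of the list's mean level between lambs within groups. That measure is wide and left some changes of sign uncounted. Antigen presentation went from -0.45 to 0.14 without 8263 and 8378, and cytosolic ribosomal proteins from 0.09 to -0.04 without 8649 and 8668. In 29 named genes, 111 values changed sign, and the cause was not tested. The log2 fold changes of opposite sign to the reported ones follow. With limma voom with sample weights, they were DNMT1 -0.016, DNMT3A -0.029, GHR -0.033, HSD3B7 -0.028, ISG20 0.033, LCN2 -0.11, NR3C1 -0.0081, RSAD2 0.077, SOCS1 0.073, SPP1 0.034 and PSMB9 0.013. With DESeq2, they were EPCAM -0.074, ISG20 0.30, SOCS1 0.13, PSMB9 0.088, TAP1 0.087 and LYZ 0.16. With the difference of mean log2 CPM (exact permutation test per gene), HMOX1 was 0.00048. With 2 surrogate variables, they were HMOX1 0.056, IFIT3 0.026, RSAD2 0.081, SOCS1 0.033, TAP1 0.0014 and LYZ 0.12. With 8649 and 8668 left out, they were EPCAM -0.55, HMOX1 0.069, IGF1 0.064, IGF2 0.024, IGFBP1 -0.16, NR1I2 0.073, PCK1 0.024, PPARA 0.026 and TFF3 -0.066. With 8263 and 8378 left out, they were AHR 0.038, DNMT3A -0.044, HMOX1 0.076, IFIT3 0.63, IGF1 0.033, IGFBP1 -0.17, ISG20 0.59, NR3C1 -0.0075, RSAD2 0.65, SOCS1 0.20, PSMB8 0.086, PSMB9 0.19, TAP1 0.28, LYZ 0.15, C1QC 0.048 and PSMF1 0.032. With all 4 of these lambs left out, they were AHR 0.10, CYP1A1 -0.11, DNMT3A -0.017, EPCAM -0.73, HMOX1 0.18, IFIT3 0.82, IGF1 0.22, IGFBP1 -0.39, ISG20 0.70, RSAD2 0.91, SOCS1 0.25, TDO2 0.014, TFF3 -0.41, PSMB8 0.039, PSMB9 0.061, TAP1 0.30, LYZ 0.19, C1QC 0.014 and PSMF1 0.12. With single lambs left out, values ranged for DNMT1 from -0.034 to 0.085, for DNMT3A from -0.029 to 0.051, for EPCAM from -0.054 to 1.76, for HMOX1 from -0.12 to 0.063, for IGF2 from -0.28 to 0.021, for IGFBP1 from -0.16 to 0.37, for ISG20 from -4.45 to 0.34, for LCN2 from -0.086 to 0.16, for NR1I2 from -0.11 to 0.039, for NR3C1 from -0.0085 to 0.061, for PCK1 from -0.18 to 0.065, for PPARA from -0.18 to 0.012, for SOCS1 from -0.78 to 0.15, for PSMB9 from -1.56 to 0.11, for TAP1 from -1.08 to 0.089 and for LYZ from -1.22 to 0.16. Depth limits genes under 1 CPM, which were not tested.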
